A study of Mus musculus with 10 samples.

Results

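Aminoacyl-tRNA synthetases join each amino acid to its transfer RNA, and the 37 genes described here are those whose symbol carries the usual ending of this family, out of 22186 genes measured. All 37 passed the filter for testing, a mean of at least 1 FPKM (fragments per kilobase of transcript, scaled to the mapped fragments of the library) over the libraries. The symbol separated 19 cytosolic members from 17 mitochondrial ones, whose symbols end in 2. It left Tarsl2, an additional threonyl-tRNA synthetase gene that this sorting by symbol placed in neither class. Eprs, the gene of the joined glutamyl- and prolyl-tRNA synthetase, has a symbol outside this pattern and is given beside the members.

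RNA was measured in 10 libraries of wild-type RAW264.7, a macrophage-like line established from a virus-induced mouse tumour, of which 5 were kept in medium and 5 in medium with doxorubicin for 24 h. Doxorubicin, a chemotherapy drug of the anthracycline class, poisons topoisomerase II and so leads to DNA breaks. The sample titles give its dose as 10 nM and the series design as 100 nM with a remark that this is the right one, while the dilution in the treatment protocol matches neither. It was added from a dimethyl sulfoxide stock, and the labels name no solvent for the medium cultures. Both groups carry replicate numbers 1 to 5, and nothing in the labels says that these are separate cultures, and the spread behind every p-value may therefore be technical.

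Cytosolic synthetases serve the ribosomes that translate nuclear genes, and several of them sit in a multi-synthetase complex held together by scaffold proteins. Mitochondrial synthetases are made from separate nuclear genes and imported to serve the ribosomes of the organelle. The products of Gars and Kars act in both places. When amino acids run short, uncharged transfer RNA activates the kinase GCN2, which raises translation of the transcription factor ATF4, and ATF4 in turn is known to raise many cytosolic synthetase genes together with genes of amino acid synthesis and uptake.

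FPKM summed to between 338293 and 356111 per library, and the depth of the libraries was unknown. The 10 macrophage markers were present in every library (Cd68 at 416 to 609 FPKM in medium, Adgre1 at 135 to 158). Of them, 0 were called without the replicate block described below, where 0.689% of all genes were higher and 0.223% lower. With the block 2 were called higher and 0 lower, where 7.81% of all genes were higher and 13.7% lower. The 2 were Lyz2 (440 to 513 FPKM in medium and 464 to 667 with doxorubicin) and Itgam (40.4 to 60.6 and 41.3 to 88.7). Their part in the results below was not tested. Of 12 markers of other cell types only S100a8 averaged 1 FPKM or more, and Cd3e, Ncr1 and Krt18 were listed at 0 in all 10. The p53 target Cdkn1a stood at 42.5 to 54.4 FPKM in medium and 120 to 212 with doxorubicin. The libraries of number 1 stood apart, with 5.21% and 3.88% of their FPKM in the ferritin gene Fth1 against 2.14% to 2.56% in the others, and counts without them are given beside the main ones.

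In medium, most cytosolic members lay above the mitochondrial ones. Their mean levels ran from 49.6 ± 11.5 FPKM (SD, n = 5) for Wars to 280.3 ± 56.4 for Nars, with a median of 88.4 over the 19. The mitochondrial members ran from 3.61 ± 0.411 for Ears2 to 64.8 ± 57.4 for Lars2, with a median of 9.88 over the 17. The mean of Lars2 rests on medium 3 (167 FPKM, against 37.6 to 41.4 in the other 4 medium libraries). Without medium 3 it was 39.1 ± 1.79 FPKM (n = 4), below Tars2 at 49.5 ± 4.54. After Nars came Rars (196 ± 35.5), Gars (171 ± 35.3), Kars (144 ± 6.97) and Sars (140.0 ± 36.7), and neighbours in this order overlapped in their libraries. Of 16 pairs of a cytosolic and a mitochondrial gene for the same amino acid, the cytosolic one was higher by a factor of 1.36 (Lars and Lars2) to 32.5 (Nars and Nars2), with a median of 6.23. The factor of 1.36 includes Lars2 in medium 3, and the next lowest was 1.80 (Tars and Tars2). Together the 37 genes made up 0.510% to 0.770% of the FPKM of a library.

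**Figure D1:**
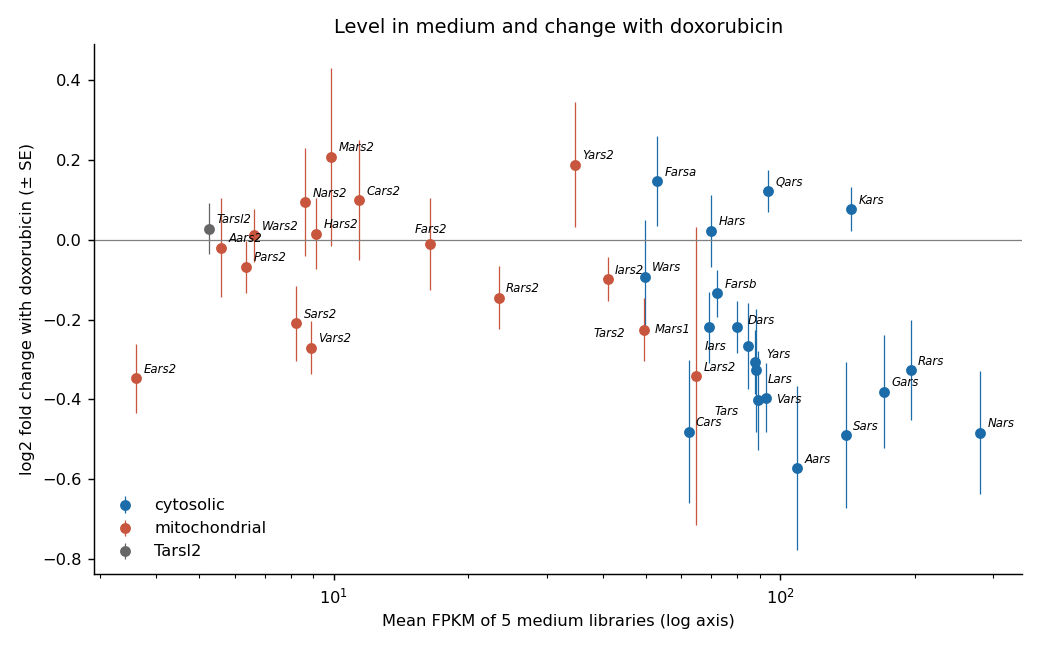
Each point is 1 of 36 members, with its mean FPKM in the 5 medium libraries on a log axis and its log2 fold change with doxorubicin on the log2(FPKM + 1) scale (bars, SE of the fit without a block). Cytosolic members (blue) lie at 49.6 FPKM and above, mostly below 0 on the vertical axis, and mitochondrial members (red) lie mostly around 0, with a median of -0.02 over the 17 of the class.

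The comparison of doxorubicin with medium asks how the synthetase genes differ between treated and untreated cells. In bulk RNA, fewer cells of a kind and less RNA per cell cannot be told apart. Fold changes are differences of mean log2(FPKM + 1). Of the 19 cytosolic members, 14 were lower with doxorubicin within each of the 5 replicate numbers, against 23.1% of all genes tested, and 3 were higher within each (Farsa, Qars and Kars), against 13.2%. The median change of the cytosolic class was -0.31, that of the mitochondrial class -0.02 and that of all 9869 genes tested -0.03. Within numbers 1 to 5 the cytosolic median was -0.25, -0.28, -0.23, -0.39 and -0.31, and the mitochondrial median -0.11, -0.15, -0.07, -0.06 and 0.02.

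With group as the only term, 0 of the 19 cytosolic and 0 of the 17 mitochondrial members passed a limma adjusted p of 0.05, at which 0.223% of all genes were called lower and 0.689% higher. An unadjusted p under 0.05 was reached by 13 cytosolic and 4 mitochondrial members in the lower direction, against 11.2% of all genes. An exact permutation test called 0 members, but also 0 of all 9869 genes. Its smallest possible p was 0.00794 and its smallest adjusted p over all genes 0.118, so it cannot set the members apart from other genes. Library quality weights in limma called 15 cytosolic and 5 mitochondrial members lower, where 23.3% of all genes were lower, and 2 cytosolic members higher (Qars and Kars), where 14% were higher. With the replicate number as a block, which compares the libraries within each number, limma called 13 of 19 cytosolic members lower and 0 higher, where 13.7% of all genes were called lower and 7.81% higher, and 4 of 17 mitochondrial members lower and 0 higher. Without both libraries of number 1, the counts lower were 4 and 1 without the block, where 2.8% of all genes were lower, and 14 and 4 with it, where 18.5% were. With the block this setting also called 1 member of each class higher (Qars and Yars2), against 10.3% of all genes.

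These calls rest on treating the 5 numbers as independent. Libraries with different numbers resembled each other across groups between numbers 2 and 3 and between 4 and 5 (correlation of deviations from the group means, 0.509 to 0.692), a range that overlapped that of libraries with the same number (0.524 to 0.794). With number 1, numbers 2 and 3, and numbers 4 and 5 as 3 sets in the block, 14 cytosolic and 5 mitochondrial members were lower, against 19.9% of all genes, and 2 cytosolic (Farsa and Qars) and 1 mitochondrial (Yars2) were higher, against 12.2%. That fit still counts the libraries within a set as separate replicates, so its calls also rest on their independence. When the libraries of such a set were averaged to leave 3 pairs, 0 members passed, against 0.152% of all genes in the lower direction. The 13 cytosolic members called with the replicate block then had limma unadjusted p of 2.63e-04 to 0.0187 and limma adjusted p of 0.0644 to 0.149. They were picked by that fit on the same libraries, so these values are no separate support. In this setting 2391 of 9869 genes, in either direction, had a limma unadjusted p under 0.05.

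The 13 cytosolic members called with the block had changes in mean FPKM of -14.4% to -34.4%. The asparagine gene Nars stood at 251, 225, 243, 339 and 344 FPKM in medium 1 to 5 and at 187, 163, 172, 244 and 232 FPKM in doxorubicin 1 to 5. Each treated library lay below the medium library of its number, but treated libraries 4 and 5 reached into the range of medium 1 to 3. The log2 fold change of Nars was -0.48 (SE 0.15, limma adjusted p = 0.150, and 5.38e-04 with the block), and within numbers it kept between -0.42 and -0.56.

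The alanine gene Aars, which had the lowest log2 fold change of the members, was at 76.1, 85.1, 94.3, 144 and 146 FPKM in medium and at 58.9, 61.0, 61.7, 87.8 and 88.5 with doxorubicin. Its difference was smallest in number 1 (-0.36) and near -0.7 in numbers 4 and 5 (-0.70 and -0.72), for a log2 fold change of -0.57 (SE 0.21, limma adjusted p = 0.187, and 0.00151 with the block). For the serine gene Sars, medium libraries held 151, 97.8, 105, 172 and 175 FPKM and treated libraries 105, 80.1, 80.5, 114 and 109. The change of Sars was -0.49 (SE 0.18, limma adjusted p = 0.200, and 0.00303 with the block), again with groups that overlap.

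Cars, the cysteine gene, was at 66.8, 50.3, 52.7, 74.5 and 67.4 FPKM in medium and at 45.0, 32.2, 34.5, 58.3 and 55.6 with doxorubicin. In contrast to Aars and Sars, its differences were larger in numbers 1 to 3 (-0.56, -0.63 and -0.60) than in numbers 4 and 5 (-0.35 and -0.27). The threonine gene Tars had 70.8, 84.3, 85.1, 104 and 101 FPKM in medium and 54.5, 61.4, 66.1, 78.3 and 74.6 with doxorubicin, a difference that held between -0.36 and -0.45 in all 5 numbers. Log2 fold changes were -0.48 for Cars and -0.40 for Tars, with limma adjusted p of 0.198 and 0.139 without the block and 0.00332 and 0.00121 with it.

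The valine gene Vars and the tyrosine gene Yars were lower in every treated library than in any medium library. Vars, whose product binds the elongation factor eEF1 complex, stood at 85.6, 86.5, 87.0, 102 and 102 FPKM in medium and 58.6, 72.7, 72.4, 73.6 and 73.9 with doxorubicin (log2 fold change -0.40, SE 0.09, limma adjusted p = 0.0619, and 0.00392 with the block). Yars stood at 79.6, 83.5, 82.3, 99.6 and 94.9 FPKM in medium and 64.0, 68.6, 69.6, 75.9 and 76.2 with doxorubicin (-0.31, SE 0.08, limma adjusted p = 0.110, and 0.00367 with the block). With Dars, the aspartate gene, these were the 3 cytosolic members whose groups did not overlap in the lower direction, as was the case for 3.97% of all genes. Without medium 1, Vars passed also in the fit without a block.

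The glycine gene Gars stood at 133, 151, 154, 210.5 and 207 FPKM in medium and at 116, 114, 121, 153 and 145 with doxorubicin. Rars, for arginine, stood at 176, 162, 174, 229 and 239 FPKM in medium and at 148, 131, 148, 175 and 172 with doxorubicin. Lars, for leucine, stood at 69.3, 76.2, 79.5, 109.7 and 107 FPKM in medium and at 56.1, 61.8, 66.9, 81.8 and 82.2 with doxorubicin. In all 3 the treated libraries 4 and 5 were level with or above the lowest medium libraries, and each number showed a decrease. Log2 fold changes were -0.38 for Gars, -0.33 for Rars and -0.33 for Lars. Their limma adjusted p were 0.199, 0.211 and 0.292 without the block and 0.00367, 0.00475 and 0.00351 with it. The other members called with the block were Iars (-0.27), Mars1 (-0.22) and Dars (-0.22).

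**Figure D2:**
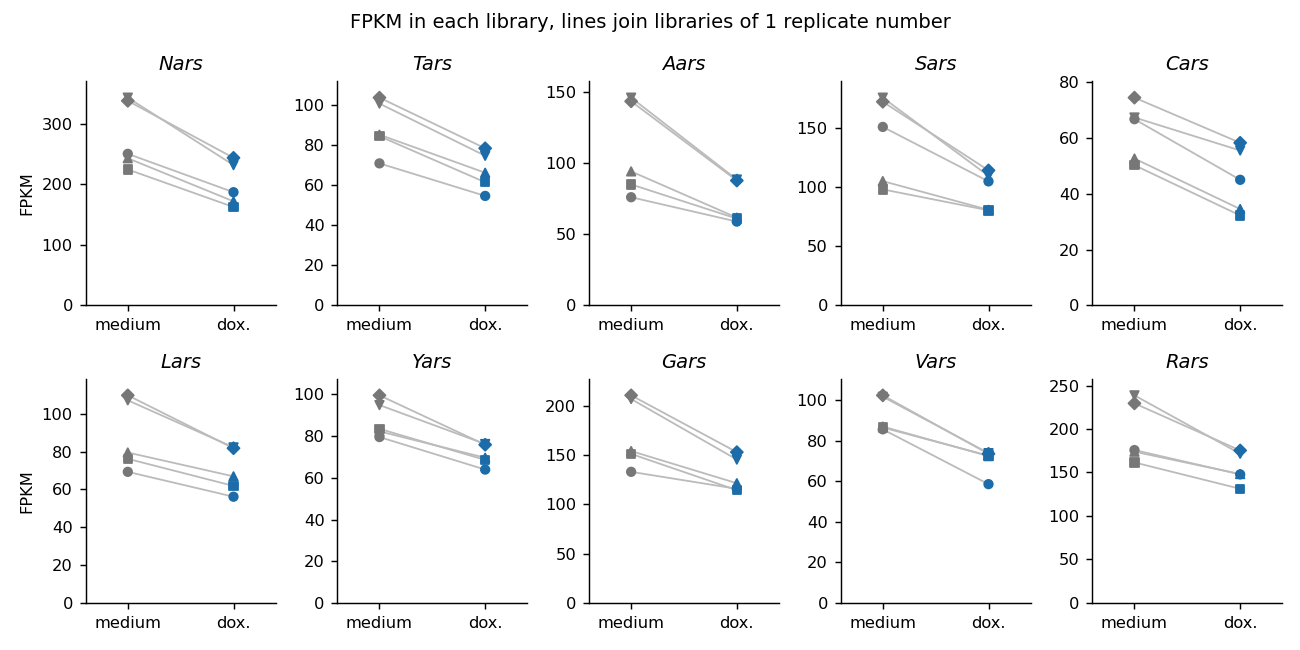
FPKM of the 10 cytosolic members with the smallest adjusted p in the fit with the block, in medium and with doxorubicin (dox.), with vertical axes from 0 and 1 marker shape per replicate number (circle 1, square 2, upward triangle 3, diamond 4, downward triangle 5). Every line, which joins the 2 libraries of 1 number, slopes downward, but the choice of genes by that fit favours such lines. In all 10 genes the libraries of numbers 4 and 5 lie above those of 1 to 3 in both groups, by little for Cars in medium and Vars with doxorubicin.

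The level of these genes also differed between replicate numbers. For 11 of the 19 cytosolic members, libraries 4 and 5 lay above libraries 1 to 3 in medium and also with doxorubicin, against 2 of 17 mitochondrial members (Iars2 and Rars2) and 11.4% of all genes. In medium, the mean of libraries 4 and 5 was 1.70 times that of libraries 1 to 3 for Aars, 1.47 times for Sars, 1.45 times for Lars and 1.42 times for Nars. The sum of the 19 cytosolic members was 1821, 1824, 1868, 2325 and 2327 FPKM in medium 1 to 5 and 1542, 1536, 1609, 1851 and 1808 with doxorubicin. Treated libraries 4 and 5 thus held about the cytosolic total of medium 1 to 3.

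Short stretches of promoter are shown for the cytosolic members that hold the core of the C/EBP-ATF response element, the site bound by ATF4 with a C/EBP partner, because several of the genes above are known ATF4 targets. The element was searched as TGATGNAA on both strands (TTNCATCA on the reverse), in windows from 250 bases before to 50 after each annotated start (RefSeq, GRCm38.p6, an earlier build than the GRCm39 of the deposited values, so genes were matched by symbol). Of the 37 members, 27 were in the promoter table. The core occurred in 5 of 12 cytosolic members (41.7%) and 0 of 14 mitochondrial ones, against 4.51% of 27025 genes, and all 5 were among the 13 called lower with the block, as were 3 of the 7 cytosolic members without it. Capitals mark the match, each stretch reads 5′ to 3′ on the strand of its gene, with 1 match shown for each gene:
Aars, chr8:111033840-111033869, plus strand: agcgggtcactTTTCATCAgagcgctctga
Tars, chr15:11399655-11399684, minus strand: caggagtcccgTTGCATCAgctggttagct
Gars, chr6:55037960-55037989, plus strand: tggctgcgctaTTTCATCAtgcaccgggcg
Iars, chr13:49682126-49682155, plus strand: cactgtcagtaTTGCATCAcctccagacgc
Yars, chr4:129189895-129189924, plus strand: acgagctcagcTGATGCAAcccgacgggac
The match of Gars begins 30 bases before the start and that of Tars 15 before it. Those shown for Aars, Iars and Yars lie just after the start. Nars, Cars, Lars, Vars, Rars, Wars and Hars, and among mitochondrial members Pars2 and Hars2, had no entry in the table. A match of letters does not show that a factor was bound.

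Of the cytosolic members, 6 were not called with the replicate block, though Farsb, Farsa, Qars, Kars and Wars each passed under 1 or more of the other settings above. Farsb, which encodes the beta subunit of the phenylalanine enzyme, was lower in each number (72.2 ± 2.56 and 65.8 ± 3.93 FPKM, -0.13, limma adjusted p = 0.270, and 0.0641 with the block), whereas Farsa, which encodes the alpha subunit of the same enzyme, was higher in each (53.1 ± 8.17 and 58.4 ± 5.37 FPKM, 0.15, adjusted p = 0.533, and 0.0716 with the block). The glutamine gene Qars was the 1 member whose treated libraries (97.1 to 108 FPKM) all lay above the medium libraries (89.7 to 95.8), as for 2.73% of all genes (0.12, 95% interval 0.01 to 0.24, limma adjusted p = 0.258, and 0.0798 with the block). Kars, for lysine, stood at 144 ± 6.97 and 152 ± 4.90 FPKM (0.08, interval -0.04 to 0.20). Hars, for histidine, stood at 70.1 ± 7.50 and 71.1 ± 5.93 FPKM (0.02, interval -0.18 to 0.22).

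Wars, the tryptophan gene, which is known to be induced by interferon gamma, had no single direction. It was at 35.7, 44.7, 45.3, 58.0 and 64.5 FPKM in medium and at 48.4, 51.3, 43.4, 42.8 and 42.3 with doxorubicin, so that it was higher with doxorubicin in numbers 1 and 2 and lower in numbers 3 to 5 (-0.09, SE 0.14, limma adjusted p = 0.788, and 0.651 with the block). With quality weights its change was -0.40 (limma adjusted p = 0.00390), and without medium 5 it was 0.0074, with the sign turned. It was named after its values were seen. Eprs, which the symbol pattern missed, was at 150.0, 108, 129, 168 and 170.3 FPKM in medium and 109, 118, 121, 123 and 136 with doxorubicin. It was lower in 4 of the 5 numbers and higher in number 2 (-0.23, SE 0.12, limma adjusted p = 0.342, and 0.0823 with the block).

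**Figure D3:**
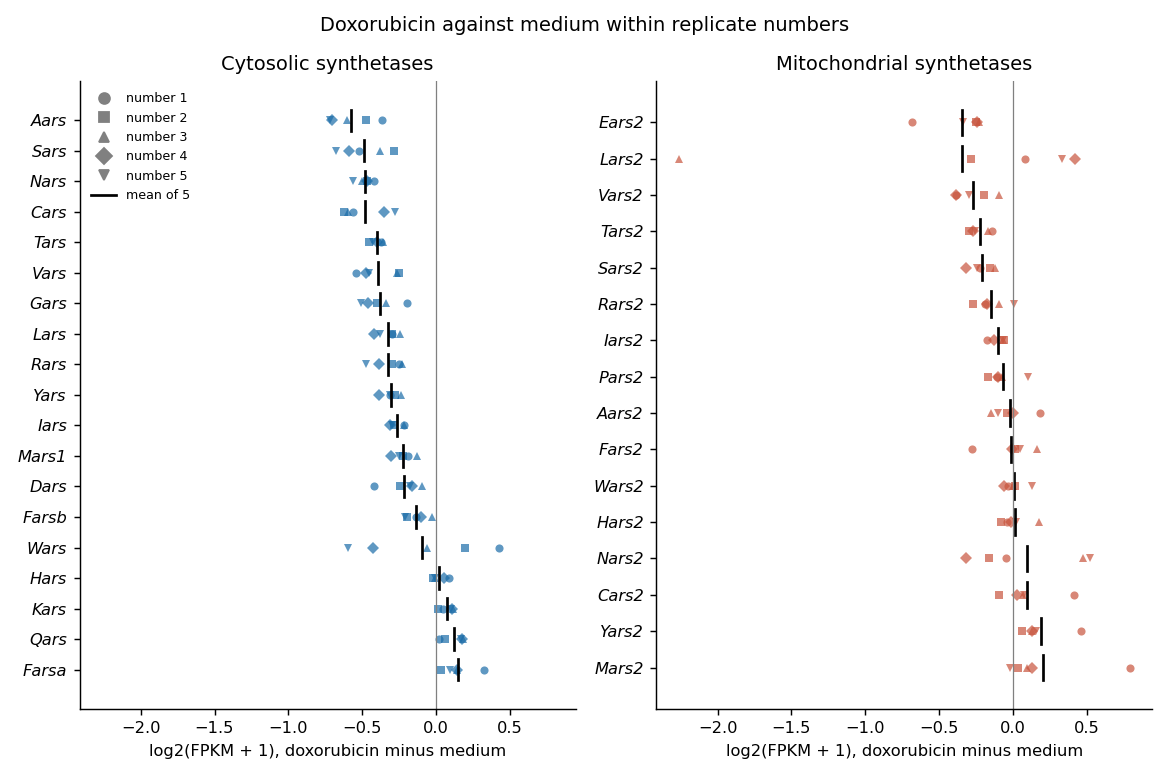
Difference of log2(FPKM + 1) between the doxorubicin and the medium library of each replicate number, for the 19 cytosolic (left) and 16 mitochondrial (right) members, with 1 marker shape per number and a bar at the mean of the 5. The cytosolic members from Aars to Farsb lie below 0 in all 5 numbers, most mitochondrial members straddle 0, and the single marker at -2.26 is Lars2 in number 3.

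Of the 17 mitochondrial members, 5 were lower with doxorubicin within each number, beside 23.1% of all genes, and 1 was higher within each, beside 13.2%. Tars2, for threonine, was at 41.7, 50.4, 50.1, 52.4 and 52.8 FPKM in medium and at 37.7, 40.9, 44.6, 43.2 and 44.1 with doxorubicin (-0.23, SE 0.08, limma adjusted p = 0.181, and 0.0128 with the block). Vars2, for valine, was at 9.06, 8.99, 8.65, 8.92 and 8.88 FPKM in medium and at 6.71, 7.75, 8.05, 6.58 and 7.06 with doxorubicin (-0.27, SE 0.07, limma adjusted p = 0.0943, and 0.0182 with the block). The medium libraries of Vars2 lay within a narrow range, and every treated library lay below it. Tars2 overlapped between groups through medium 1, its lowest medium library, and passed without a block when that library was left out.

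Ears2 makes the glutamyl-tRNA that mitochondria use for glutamate and, after transamidation, for glutamine. It was at 4.14, 3.19, 3.21, 3.83 and 3.68 FPKM in medium and at 2.20, 2.53, 2.60, 3.09 and 2.70 with doxorubicin (-0.35, SE 0.09, limma adjusted p = 0.0977, and 0.0184 with the block), with no overlap between the groups and the largest difference in number 1 (-0.68). Sars2, for serine, was at 6.77, 8.45, 8.06, 9.07 and 8.89 FPKM in medium and at 5.67, 7.51, 7.35, 7.09 and 7.35 with doxorubicin (-0.21, SE 0.09, limma adjusted p = 0.274, and 0.0255 with the block). Within every number the treated library was the lower of the pair. Yars2, for tyrosine, was higher in each number, at 22.8, 43.0, 39.5, 34.8 and 33.7 FPKM in medium and 31.8, 45.0, 43.3, 38.1 and 37.6 with doxorubicin, but did not pass in the fit without a block or with the replicate block (0.19, SE 0.16, limma adjusted p = 0.566 and 0.0635). It passed with the 3 sets as the block (limma adjusted p = 0.0291) and, with a change of 0.12, with the replicate block without number 1 (0.0492).

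Iars2, for isoleucine, was the remaining mitochondrial member whose groups did not overlap (40.0 to 43.3 and 35.3 to 39.5 FPKM, -0.10). It was not called with the replicate block (limma adjusted p = 0.125), but was called lower with quality weights. The other 11 mitochondrial members had changes between -0.34 (Lars2) and 0.21 (Mars2), and none was called with the replicate block or without a block. Of these, Rars2 (-0.15) was called lower with the 3 sets as the block. Lars2 had 167 FPKM in medium 3 and 37.6 to 41.4 in the other 4 medium libraries, against 32.4 to 50.8 with doxorubicin. Without medium 3, its mean in medium was 39.1 ± 1.79 FPKM (n = 4) and its change 0.07 (SE 0.13, limma adjusted p = 0.810). Tarsl2 was at 4.96, 5.50, 5.54, 4.87 and 5.46 FPKM in medium and 5.25, 4.93, 5.54, 5.69 and 5.53 with doxorubicin (0.03, 95% interval -0.11 to 0.17).

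Set side by side for the same amino acid, the cytosolic gene had the more negative change in 13 of the 16 pairs. These cover 15 amino acids, because Fars2 (-0.01) stands beside both Farsa (0.15) and Farsb (-0.13). Lars was an exception only with medium 3, without which the changes were -0.36 for Lars and 0.07 for Lars2. The contrast was widest for Aars (-0.57) beside Aars2 (-0.02), Cars (-0.48) beside Cars2 (0.10) and Nars (-0.48) beside Nars2 (0.09). For valine, both genes were lower with the block, as were both for serine and both for threonine. The difference between the classes itself was not tested.

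A list of 12 synthetases known from published work as genes of the ATF4 or amino acid response (Aars, Cars, Eprs, Gars, Iars, Lars, Mars1, Nars, Sars, Tars, Wars and Yars) held 10 called lower with the block and 0 higher, with Wars and Eprs not called. The other 8 cytosolic genes held 3 called lower (Vars, Rars and Dars) and 0 higher, and the shares of all genes were 13.7% lower and 7.81% higher. Without the block 0 of either list passed. The median change was -0.35 for the 12 and -0.06 for the 8. Relative to the mean of the medium libraries, the mean log2 level of the 12 was -0.19, -0.20, -0.14, 0.27 and 0.26 in medium 1 to 5 and -0.48, -0.49, -0.45, -0.17 and -0.19 with doxorubicin, so that both the step between numbers and the step with treatment were present. For the 8 the same level ran from -0.09 to 0.07 in medium and from -0.20 to -0.03 with doxorubicin.

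**Figure D4:**
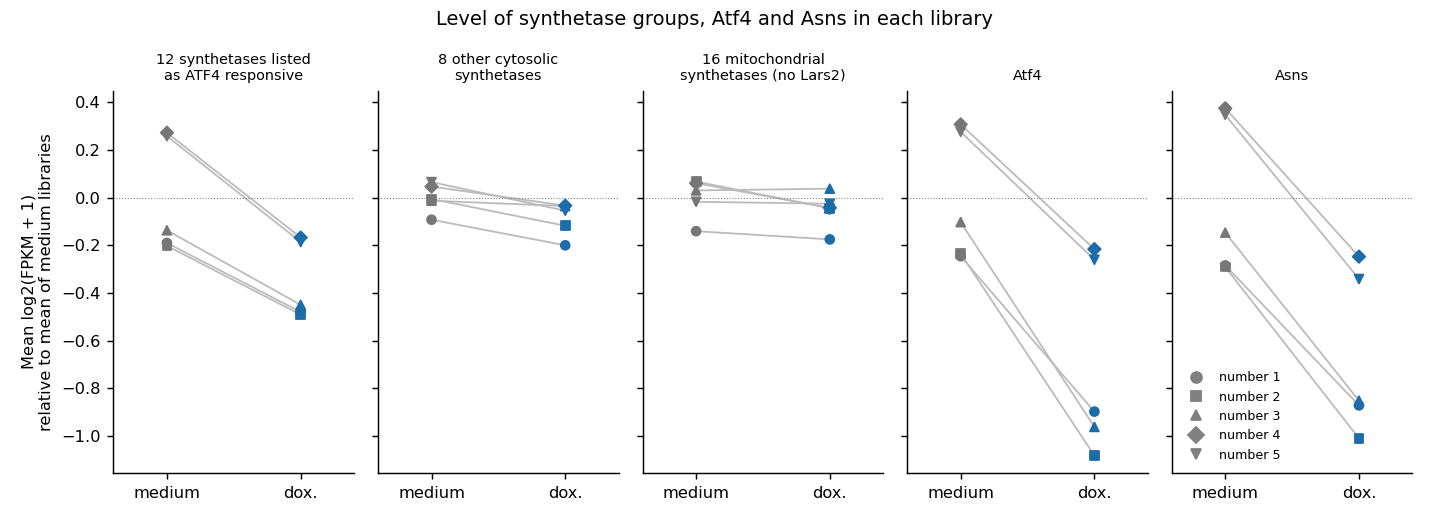
Mean log2(FPKM + 1) of groups of synthetase genes, and the level of Atf4 and Asns, relative to the mean of the 5 medium libraries, in medium and with doxorubicin (dox.). Lines join the 2 libraries of 1 number, and the 12 listed synthetases step down in each number from a higher level in numbers 4 and 5, as Atf4 and Asns do, while the mitochondrial genes, drawn without Lars2, stay between -0.18 and 0.07. The step of the 12 is largest in numbers 4 and 5, whereas that of Atf4 is smallest there.

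Atf4 was likewise highest in medium 4 and 5 and lowest in doxorubicin 1 to 3, at 215, 217, 238, 316 and 309 FPKM in medium and 137, 120, 131, 219.7 and 213 with doxorubicin. Asns, the asparagine synthetase gene and a target of ATF4, was at 125, 124, 137, 197 and 194 FPKM in medium and 82.6, 75.0, 83.8, 128 and 119.7 with doxorubicin. Trib3, whose product restrains ATF4, was at 46.7, 19.9, 29.4, 92.7 and 97.8 FPKM in medium and 9.69, 3.89, 5.44, 23.7 and 24.0 with doxorubicin. Log2 fold changes were -0.68 for Atf4, -0.66 for Asns and -2.08 for Trib3, with limma adjusted p of 0.124, 0.125 and 0.114 without the block and 7.25e-04 and 1.95e-04 with it for Atf4 and Asns. Treated libraries 4 and 5 overlapped the medium libraries 1 to 3 for all 3 genes. The size of the step across numbers 1 to 5 differed from that of the 12 listed synthetases. It was -0.65, -0.85, -0.86, -0.52 and -0.54 for Atf4 and -0.59, -0.72, -0.70, -0.62 and -0.69 for Asns. The median step of the 12 was -0.34, -0.29, -0.29, -0.42 and -0.40, largest in numbers 4 and 5, where that of Atf4 was smallest. Of 23 genes listed for uncharged tRNA sensing and the ATF4 branch, 13 were lower and 2 higher with the block, beside 13.7% and 7.81% of all genes, so that the share higher lay near that of all genes. The 2 were Impact (0.27), an inhibitor of GCN2 activation, and Eif2ak2 (0.28), the kinase that senses double-stranded RNA. Among the 13 were Ddit3 (-1.53), which encodes the stress factor CHOP, and Mthfd2 (-0.66), of mitochondrial folate metabolism. Eif2ak4, the GCN2 gene, named after its values were seen, was at 12.8 ± 0.606 and 12.7 ± 0.874 FPKM (-0.01, limma adjusted p = 0.945, and 0.882 with the block).

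Counts in the lists that follow stand beside the 13.7% lower and 7.81% higher of all genes with the block. Of 8 catalytic members of the multi-synthetase complex, all of them synthetases, 5 were lower with the block (Dars, Iars, Lars, Mars1 and Rars) and 0 higher, with a median change of -0.23, whereas 0 of its 3 scaffold genes were called, Aimp1 (-0.03), Aimp2 (0.05) and Eef1e1 (-0.07). Of 4 genes for transamidation and formylation of mitochondrial aminoacyl-tRNA, 0 were called, with Gatb, Gatc, Qrsl1 and Mtfmt between -0.06 and 0.18. Among 6 genes that edit or modify charged tRNA, Sepsecs, which makes selenocysteinyl-tRNA, was the 1 called lower (-0.20, limma adjusted p = 0.0306 with the block).

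Of 19 tested genes for tRNA maturation and export, 2 were higher with the block, the ribonuclease P subunit gene Pop1 (0.39) and the 3′ processing gene Elac2 (0.19), and 1 lower, Elac1 (-0.51). Of 22 genes of RNA polymerase III, which transcribes tRNA genes, and its factors, 1 was lower, Polr3c (57.4 ± 8.93 and 46.0 ± 3.65 FPKM, -0.30). Of 16 cytosolic initiation and elongation factor genes, Eif2s2, an eIF2 subunit gene, was lower (-0.29) and Eef1b2 higher (0.17). Of 10 mitochondrial translation factor genes, the release factor gene Mtrf1 was lower (-0.24) and 0 were higher. The medians of these 4 lists lay between -0.07 and -0.01, near the -0.03 of all genes, and without the block 0 of their members passed. Their shares called lay near or below those of all genes.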

How the data were processed

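Poly(A) RNA was sequenced per the labels' protocols. The authors deposited FPKM values for 10 libraries in 1 table keyed by symbol. The submitters' processing notes name the build GRCm39, while aligner, quantifier, annotation and gene filter are not given in the sources used here. No multiples of a single read could be seen among the lowest FPKM, so depth is unknown and no counting interval was computed.

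Columns were matched to samples by library name. Values were analysed as log2(FPKM + 1), which understates changes near 1 FPKM, for the 9869 genes with a mean of at least 1. Limma 3.58.1 in R 4.3.3 was fitted over all of them with a mean-variance trend, two-sided, with Benjamini-Hochberg adjustment and a threshold of 0.05. Symbols such as Aars are the older forms in the table. The same-numbered libraries of the groups deviated together (correlation 0.524 to 0.794 for the 5 numbers), so the fit with the number as a block stands beside the main one. The procedure was tested on simulated data with the random spread drawn independently for each library. That test therefore cannot show whether the replicate numbers are independent.

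Values in every library are given for the 10 cytosolic and 5 mitochondrial members with the smallest adjusted p in the fit with the block, for Tarsl2, for Eprs and, chosen after its values were seen, for Wars. Up to 4 genes are named from the other lists by the same measure. The members and lists were chosen with earlier results of these data known, and the list of 12 responsive synthetases was drawn up from knowledge of the field. Alternatives covered the pseudocount, the filter, scaling, weights, an exact permutation test, the block and libraries left out. Some items are not reported here, and 1 mitochondrial member counted in its class is not drawn in the plots of single members.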

Additional observations from a re-analysis of the deposited data

Results flagged for a closer look

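Among 76 groups of 5 libraries (37 members and Eprs in medium and with doxorubicin), 7 held a library whose gap to the nearest other was above 0.71 of the range of its group, and chance flags about 1 group in 20. Of the 7, 6 were libraries of number 1, all at the low end. In medium 1 these were Mars2 at 4.43 FPKM (10.4 or more in the other 4) and Tars2 at 41.7 (50.1 to 52.8). In doxorubicin 1 they were Iars2 at 35.3 FPKM (38.4 to 39.5 in the other 4), Sars2 at 5.67 (7.09 to 7.51), Mars1 at 50.2 (60.4 to 63.3) and Vars at 58.6 (72.4 to 73.9). The remaining case was high, Lars2 at 167 FPKM in medium 3 (37.6 to 41.4 in the other 4), with a gap of 0.971 of the range, the widest of the 7.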

How the results depend on the processing

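The count of all genes called was 90 in the fit reported first. It was 2127 with the replicate block, 57 with a mean of at least 5 FPKM, 3681 with quality weights, 0 with the exact permutation test (smallest possible p 0.00794), 559 without both libraries of number 1, 2823 without them with the block, 3168 with 3 sets as the block and 24 with the sets averaged. The last 2 of these settings were chosen after seeing the data. Leaving out 1 library gave 15 to 226. The counts of cytosolic and mitochondrial members lower were 0 and 0 at first, 13 and 4 with the replicate block, 15 and 5 with quality weights, 4 and 1 without number 1, 14 and 4 without it with the block, 14 and 5 with 3 sets as the block, and 0 to 1 in each class with 1 library left out (1 only without medium 1, for Vars and Tars2). The cytosolic median moved to -0.40 with quality weights, and ranged from -0.34 to -0.24 with 1 library left out. For the 18 genes with values given in every library (17 members and Eprs), 377 values under the alternatives held 66 that passed the threshold, in 6 settings, and 1 reversal, Wars without medium 5 (0.0074; -0.20 to 0.0074 with 1 library left out). Ears2 fell below the filter of 5 FPKM and gave no value there. Where the block made a call for a member with values given in every library, the adjusted p is given beside the result. For most other genes called with the block that value is not printed. Depth was unknown, so no limit from counting can be set.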

Other observations

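Synthetases fall into class I and class II by the fold of the catalytic domain, a division that runs across both compartments. Eprs, which joins a glutamyl and a prolyl enzyme, was counted only in class I, with Ears2, while Pars2 stands in class II. Of the 19 genes counted as class I, 9 were lower and 0 higher with the replicate block (median change -0.23). Of the 19 class II genes 8 were lower and 0 higher (median -0.07), beside 13.7% lower and 7.81% higher of all genes. The lowest changes were -0.48 in class I (Cars) and -0.57 in class II (Aars). The mitochondrial Nars2 differed in sign between numbers, with differences of -0.05, -0.16, 0.47, -0.32 and 0.53 in numbers 1 to 5.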
